A study of Chlamydomonas reinhardtii with 4 samples.

Results

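The regions described here are the stretches of H3K27ac enrichment that lay within 100 kb of a chromosome end in the unicellular green alga Chlamydomonas reinhardtii. H3K27ac is acetylation of lysine 27 of histone H3, a mark of active promoters and enhancers, and ChIP-seq mapped it in cells of the vegetative stage. Peaks of 4 libraries that overlapped by at least 1 bp were merged into 15521 regions. Of these, 437 had their midpoint in the first or the last 100 kb of 15 numbered chromosomes (all but chromosomes 6 and 15), which gives 30 ends. The other 12958 regions of the same chromosomes are called interior below.

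Genotype was crossed with mating type, and each group had 1 library. Cells of the wild type (WT) and of a DNMT1 knockout (dnmt1) came from a plus strain (mt+, CC-5155) as well as from a minus strain (mt−, CC-5325). The mating types are thus also different strains, and the 2 factors cannot be told apart, while the labels give no allele, clone or number of cultures for the knockout. The DNMT1 gene itself was not checked, because no gene positions of the build were used here. The lists held 14990 peaks (WT mt+), 15065 (WT mt−), 14986 (dnmt1 mt+) and 15323 (dnmt1 mt−). No read counts come with them, so depth is unknown, a missing peak means that none passed the authors' threshold, and no difference between conditions was tested.

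Chromosome ends carry telomeres, short repeats that protect the DNA terminus, and next to them subtelomeres, which are often rich in tandem repeats and poor in expressed genes. In many eukaryotes this zone is held in repressive chromatin, in which acetylated histones are scarce. DNMT1 belongs to the cytosine DNA methyltransferases, and in animals and plants enzymes of this type copy CG methylation onto newly replicated DNA, repeats included. Histone acetylation and DNA methylation usually mark opposite states of a promoter.

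The limits of the windows bear on what can be read from them. A left end is coordinate 1 of the deposited sequence. A right end is the highest peak end over the 4 lists, so a peak at distance 0 on the right follows from the rule, and sequence without a peak beyond it is not seen. Whether reads could be mapped to all of the end sequence was not tested, so a stretch without a peak need not lack the mark. The members next to the 100 kb limit and the regions just beyond it had similar values. The last one inside, at chromosome 17, 6849322 to 6850256, had a fold enrichment (the authors' ratio of ChIP signal to background at the summit) of 5.38 in WT mt+, 4.74 in WT mt−, 5.38 in dnmt1 mt+ and 7.37 in dnmt1 mt−. The 2 before it, on chromosomes 13 and 12, had 5.38 to 7.50. The first one outside, at chromosome 2, 8531160 to 8532212, had 5.99, 5.49, 6.17 and 7.71 in the same order. The next 2 outside, on chromosomes 1 and 4, had 5.70 to 7.73.

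Taken over the whole window, the density of H3K27ac regions near the ends was close to that of the interior. The windows held 146 regions per Mb (95% Poisson interval 132 to 160, counting error only), and the interior 137 (135 to 140). Regions covered 13% of the windows and 12.8% of the interior. Left ends had 212 regions (141 per Mb, 123 to 162) and right ends 225 (150 per Mb, 131 to 171). The median width of a region was 853 bp near the ends (quartiles 621 and 1124) and 880 bp in the interior (679 and 1133).

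Within that window, the outermost stretch of the left ends was sparse. The first 10 kb of the 15 left ends held 5 regions, which is 33.3 per Mb (10.8 to 77.8), and the next 10 kb held 12, or 80 per Mb. From 20 kb inwards each 10 kb bin held 16 to 33 regions, and the bin from 50 to 60 kb held the most, at 220 per Mb. Taken in bins of 25 kb, the left ends had 61.3 (38.9 to 92), 144, 200 and 160 regions per Mb from the outside in. The right ends showed no such gap, with 168 (129 to 215), 139, 157 and 136 per Mb, but 15 of the 31 regions in their first 10 kb are the last region of each chromosome, which the rule places there.

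**Figure D1:**
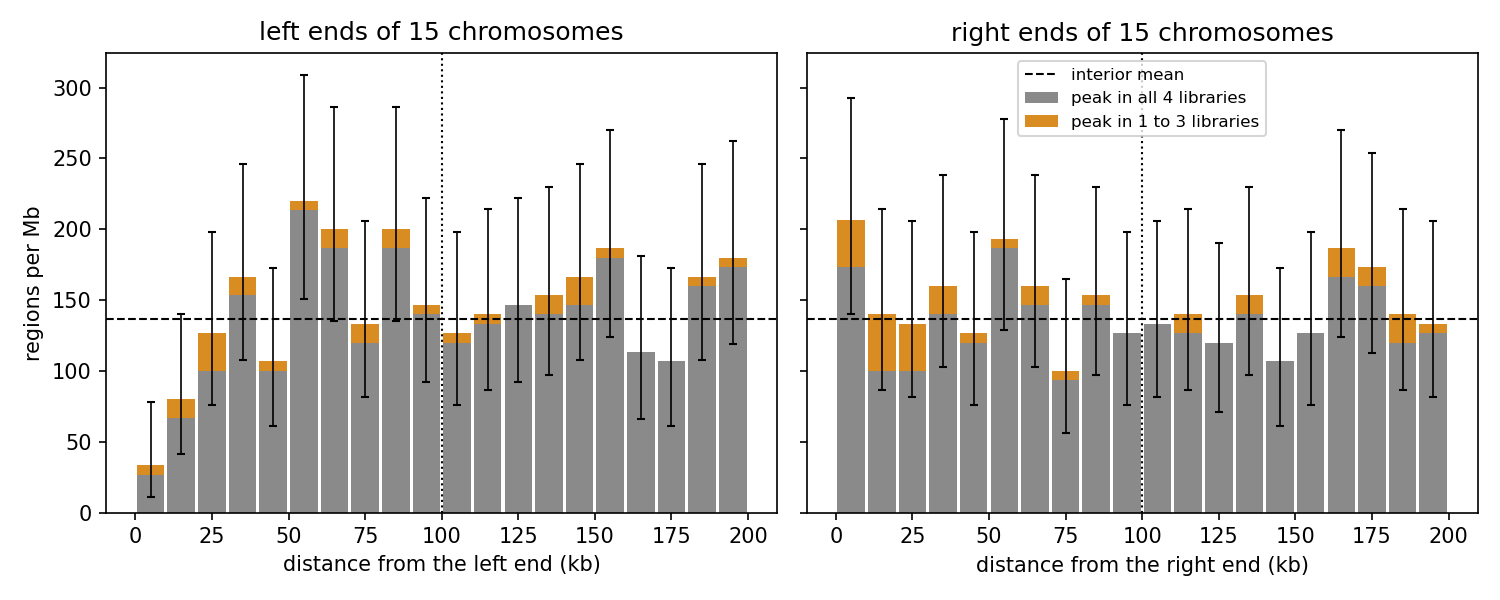
H3K27ac regions per Mb (y axis) in 10 kb bins of distance from the end (x axis, kb) for the left and right ends of 15 chromosomes, split into regions with a peak in all 4 libraries (grey) and in 1 to 3 (orange). Error bars are 95% Poisson intervals, the dashed line is the interior mean of 137 per Mb and the dotted line the 100 kb limit; the first left bin stands at 33.3 per Mb, and the first right bin holds the last region of each chromosome by rule.

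Regions in the outer 25 kb of the left ends were also weak. The median fold enrichment there was 3.60 in WT mt+ (19 regions), 2.78 in WT mt− (20), 2.88 in dnmt1 mt+ (20) and 3.33 in dnmt1 mt− (21). The interior medians of the same lists were 5.70, 5.45, 5.52 and 5.90. By −log10 q, the significance that the authors' peak caller gave each peak, the median region of this stretch ranked at the 14.1th, 10.7th, 10.5th and 11.8th percentile of its list. None of the 19 and 20 regions of the WT lists ranked above the median of its list (0%), and 10% and 4.76% did so in dnmt1 mt+ and dnmt1 mt−. The regions were narrow as well, with a median peak width of 510 bp in WT mt+ and 479 bp in WT mt−, against 828 and 837 bp in the interior. From 25 to 50 kb the left medians were already 5.87, 5.70, 5.54 and 5.81.

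At the right ends the outer 25 kb had medians of 5.24, 4.37, 4.02 and 4.96 in the same order, below the interior medians by less than at the left. The 25 kb were counted from the sequence start at the left, but from the last peak at the right. The stretches are thus unlike, and their medians cannot show a difference between the sides. For the outermost regions, described further on, the library medians were 2.26 to 2.81 at the left and 2.87 to 3.35 at the right. In the outer 25 kb of the right ends, the lower quartiles of the dnmt1 lists were 2.58 (mt+) and 2.54 (mt−), where the interior had 4.03 and 4.34. A run of weak regions at the right end of chromosome 5, described further on, placed 6 and 9 regions in this stretch of the dnmt1 lists and 0 in the WT lists. Without that end the medians were 5.33, 4.47, 4.84 and 5.31, and the dnmt1 lower quartiles were 2.90 and 2.93. In the stretch from 75 to 100 kb the right medians were 6.15, 5.95, 6.02 and 6.54. Over the whole window the members were slightly weaker than the interior, with medians of 5.49, 5.29, 5.19 and 5.70.

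**Figure D2:**
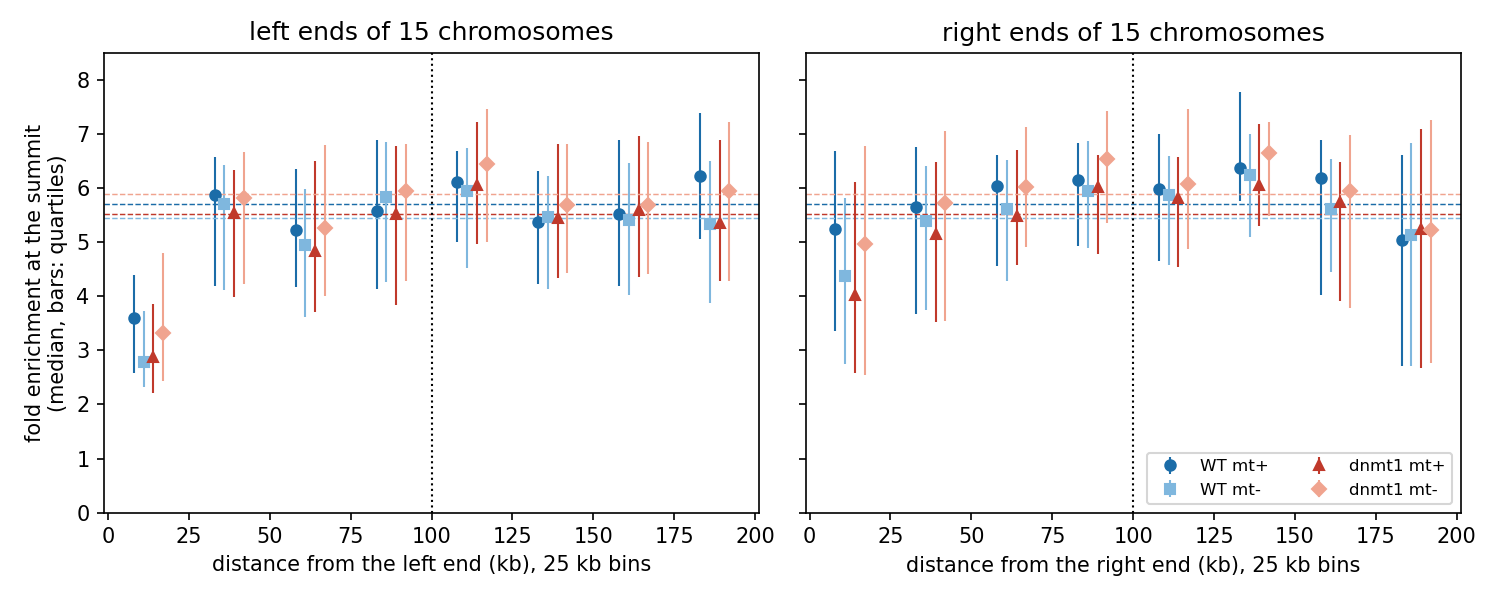
Median fold enrichment at the summit (y axis) in 25 kb bins of distance from the left and right ends (x axis, kb) for each library; bars give the quartiles over regions, dashed lines the interior median of each library, and the dotted line the 100 kb limit. The outermost left bin lies at 2.78 to 3.60 in the 4 libraries, under interior medians of 5.45 to 5.90.

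Strong regions were still present within the 100 kb windows. The member whose lowest fold enrichment over the libraries was highest lay at chromosome 11, 89222 to 90773, about 90 kb from the left end, with 9.48 in WT mt+, 8.61 in WT mt−, 9.66 in dnmt1 mt+ and 10.12 in dnmt1 mt−. By the same measure, the next 4 were all at right ends. Chromosome 2, 8565485 to 8566792, had 8.57, 8.62, 8.96 and 9.13, and chromosome 16, 7955834 to 7956811, had 9.06, 8.45, 9.46 and 9.37. The region at chromosome 5, 3597603 to 3598768, had 8.26, 8.65, 7.91 and 9.11. A region of chromosome 9, from 6703040 to 6703907, had 7.90, 7.82, 7.70 and 8.52. All 5 lay 59.4 to 90 kb from the end, and each had a peak in all 4 libraries. In the lists 33 to 36 members ranked in the top 10% by −log10 q, which is 7.82% to 8.85% of the members of a list.

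The 5 widest members lay 18.5 to 89.8 kb from the end. The widest, at chromosome 8, 66152 to 68982, spanned 2831 bp, with fold enrichments of 7.06, 4.94, 7.41 and 6.85 in WT mt+, WT mt−, dnmt1 mt+ and dnmt1 mt−. Next came chromosome 16, 7994975 to 7997241 (2267 bp), and chromosome 9, 6771072 to 6773256 (2185 bp), which lay 19.7 and 18.5 kb from their right ends. Their fold enrichments ran from 5.81 to 7.25 and from 5.16 to 8.06. A further 2 were on chromosome 8, at 88801 to 90845 near the left end (2045 bp) and at 4422671 to 4424650 near the right end (1980 bp), so 3 of the 5 widest belonged to that chromosome.

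The ends differed in how many regions they held. The median end had 14.5 regions. The right end of chromosome 5 had the most, with 25, and the left ends of chromosomes 7 and 14 and the right end of chromosome 11 followed with 18 each. The fewest, 10, were at the left ends of chromosomes 4 and 17, and 11 were found at the left end of chromosome 11 and at the right end of chromosome 13. At 10 of the 30 ends every region had a peak in all 4 libraries, at 11 ends 1 region did not, and at 9 ends 2 or more did not.

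**Figure D3:**
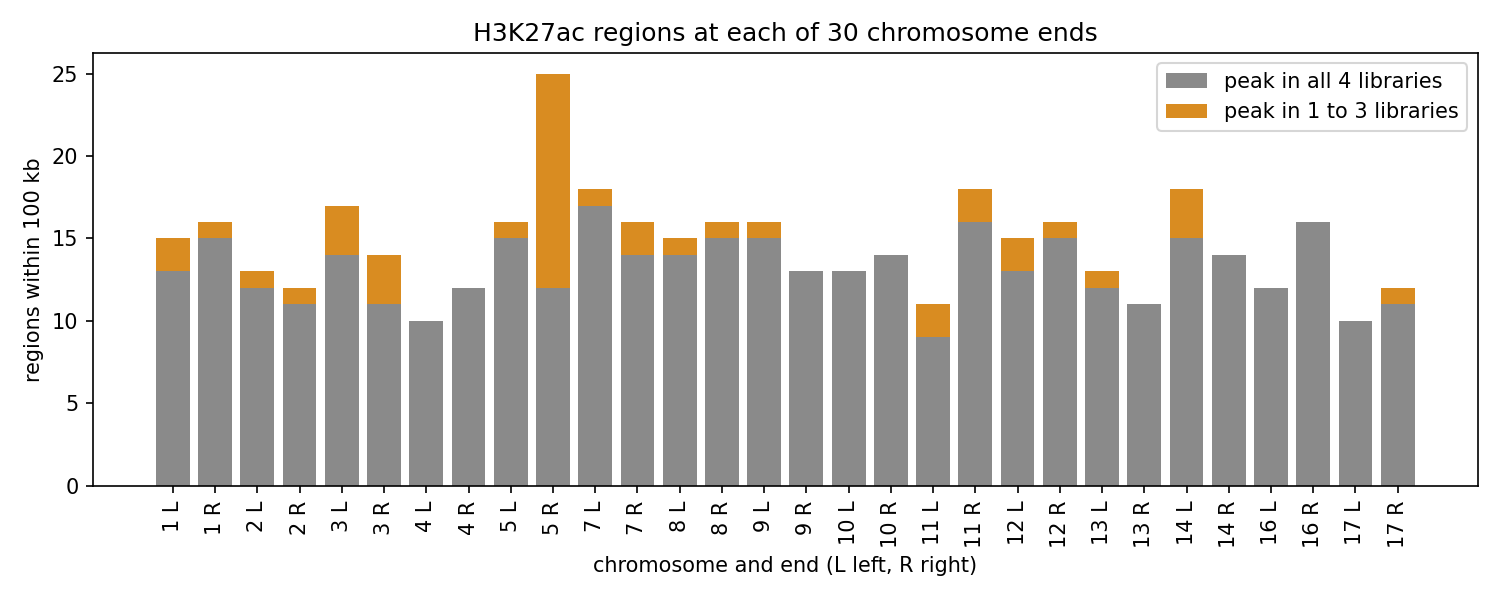
Number of H3K27ac regions within 100 kb (y axis) at each of the 30 ends (x axis, chromosome number with L for left and R for right), split into regions with a peak in all 4 libraries (grey) and in 1 to 3 (orange). The right end of chromosome 5 has 25 regions, 13 of them with a peak in fewer than 4 libraries.

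The outermost region of a left end was at the same place in most libraries. At 11 of 15 left ends the first peak started within 1 kb of the same position in all 4 libraries. In WT mt+ it started 1.7 to 34.9 kb from coordinate 1 (median 16.8), and in dnmt1 mt+ 1.62 to 35.2 kb (median 14.8). Chromosome 14 had the shortest and chromosome 17 the longest stretch without a peak in WT mt+. The 4 exceptions were chromosomes 1, 2, 12 and 13. On chromosome 12 the first WT peaks started at 33.8 kb (mt+) and 33.9 kb (mt−), whereas both dnmt1 libraries had a peak at 1.62 kb. On chromosome 1 the first peak started at 27.7 (mt+) and 27.6 kb (mt−) in the WT libraries, but at 17.1 kb in both dnmt1 libraries. Chromosome 13 ran the other way, with a first peak at 18 and 17.9 kb in the WT libraries and at 35.2 kb in both dnmt1 libraries. On chromosome 2 a weak WT mt− peak at 20.3 kb lay outside the common start of 22.6 kb.

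These outermost regions were mostly small. At the left ends their median fold enrichment was 2.81, 2.44, 2.26 and 2.70 in WT mt+, WT mt−, dnmt1 mt+ and dnmt1 mt−. In WT mt+, 11 of the 12 that had a peak ranked below the list median by −log10 q. The exception was chromosome 3, 26056 to 27150, with 8.12, 6.74, 8.37 and 8.13. At the right ends the medians were 3.35, 2.87, 2.88 and 2.93, and 12 of 15 outermost regions had a peak in all 4 libraries. The strongest of them, chromosome 1, 8224398 to 8225556, had 6.67, 6.52, 6.25 and 8.02. The last region of chromosome 17, at 6949460 to 6949730, had a peak in dnmt1 mt− alone (2.11), and the last of chromosome 8, at 4506257 to 4506616, lacked one in dnmt1 mt+ alone.

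Most members were shared by all libraries. A peak in all 4 was found for 394 of the 437 (90.2%, exact 95% binomial interval 87 to 92.8, which covers counting error only and treats regions as independent), against 12161 of the 12958 interior regions (93.8%, 93.4 to 94.3). Without the right end of chromosome 5 the share was 92.7% (89.8 to 95). The summits of the strongest peaks lay within 200 bp of each other in 350 of the 394 shared members (88.8%, 85.3 to 91.8), and in 89.1% of the shared interior regions (88.5 to 89.6). The median distance between the outermost summits was 74 bp in both sets.

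The 43 members with a peak in fewer than 4 libraries were small. Their highest fold enrichment over the libraries had a median of 2.14 and ran from 1.24 to 6.59, and 1 of the 43 ranked above the median of any list. Their median width was 360 bp, against 872 bp for the 394 shared members. They were more frequent in the outer 50 kb, where they made up 30 of 192 regions (15.6%, 10.8 to 21.5), than from 50 to 100 kb, where they made up 13 of 245 (5.31%, 2.86 to 8.9). The interior had 6.15% (5.74 to 6.58). Without the right end of chromosome 5 the outer 50 kb had 17 of 175 (9.71%, 5.76 to 15.1).

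Peaks present in a dnmt1 library and absent from WT of the same strain (gained) were weak and mostly in the outer 50 kb of the windows. In the mt+ strain 17 of the 414 members with a dnmt1 peak were gained (4.11%, 2.41 to 6.49), where over all regions of the series 1.91% were. In the mt− strain 21 of 422 were gained (4.98%, 3.11 to 7.51), where the series had 2.97%. The median fold enrichment of the gained members was 1.96 and 2.14 in the dnmt1 libraries, and that of gained regions over the series was also low, at 2.36 and 2.31. Most lay in the outer 50 kb, with 15 of 179 for mt+ (8.38%, 4.77 to 13.4) and 19 of 184 for mt− (10.3%, 6.33 to 15.7). Right ends held 11 (mt+) and 14 (mt−) of the gained members, and distance there is counted from the last peak. From 50 to 100 kb both strains had 2 gained members, and from 100 to 200 kb the shares were 1.19% and 0.939%.

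These shares rested on 1 end. The right end of chromosome 5 held 8 of the gained members of the mt+ strain and 12 of those of mt−. Without it 9 of 393 (2.29%, 1.05 to 4.3) and 9 of 397 (2.27%, 1.04 to 4.26) were gained, near the shares over all regions. The outer 50 kb without that end had 4.22% (1.71 to 8.5) and 4.19% (1.7 to 8.45).

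Peaks present in WT and absent from dnmt1 (lost) were fewer than gained ones over all ends, but not without the right end of chromosome 5. They numbered 10 of 407 in the mt+ strain (2.46%, 1.18 to 4.47), near the 2.33% over all regions. In the mt− strain 12 of 413 were lost (2.91%, 1.51 to 5.02), where the series had 1.37%. Without that end, 9 were lost beside 9 gained in the mt+ strain, and 12 were lost beside 9 gained in the mt− strain. Cutting every list to the same number of peaks left 15 lost and 14 gained members for mt−. The right end of chromosome 3 held 3 of the 12 lost members of the mt− strain, and without it the share was 2.26% (1.04 to 4.24). No lost member ranked above the median of its WT list in either strain (0 of 10 and 0 of 12), and their median fold enrichments were 1.94 and 2.04. Lost regions of the whole series were similarly weak. Of these, 0 of 346 (mt+ strain) and 3 of 204 (mt− strain) ranked above that median, and the median fold enrichments were 2.16 and 2.01.

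Peaks in both dnmt1 libraries but in no WT library were found for 12 members (2.75%, 1.43 to 4.75), where 1.07% of all regions had this pattern. Of the 12, 8 were at the right end of chromosome 5, and without that end 4 of 412 remained (0.971%, 0.265 to 2.47). The first of these 4 was the outermost region of chromosome 12, at 1624 to 2472 and 2.05 kb from the left end, with 6.59 in dnmt1 mt+ and 5.96 in dnmt1 mt−. It ranked at the 61.7th and 44.5th percentile of the lists, far above the other gained members. The second was at chromosome 7, 46073 to 46851, with 3.50 and 4.68. The remaining 2 were near the threshold, at chromosome 11, 98748 to 99138 (1.62 and 2.14), and at chromosome 1, 17103 to 18123 (1.22 and 1.24).

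The opposite pattern, a peak in both WT libraries but in no dnmt1 library, was found for 2 members (0.458%, 0.0555 to 1.64), where the series had 0.264%. They were at chromosome 9, 60871 to 61125, with 2.73 (WT mt+) and 2.06 (WT mt−), and at chromosome 13, 17905 to 18277, with 1.97 and 1.87. The chromosome 13 region was the outermost of its end.

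The right end of chromosome 5 carried a regular run of weak regions. Between 3629532 and 3653980, from 30.5 to 6.43 kb before the last peak, 12 regions followed each other without any shared region among them. Every one had a peak in dnmt1 mt−, 9 had one in dnmt1 mt+, 1 had one in WT mt+ and 0 had one in WT mt−. Their fold enrichments in the dnmt1 libraries ran from 1.51 to 2.42, with medians of 1.94 (mt+) and 2.07 (mt−), and no peak ranked above the 7.1th percentile of its dnmt1 list. The midpoints were evenly spaced: 10 of the 11 steps lay between 1748 and 2224 bp, the other was 4264 bp, and the median step was 1972 bp.

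Fold enrichments in this run stayed low along it, while the −log10 q in the dnmt1 libraries ran from 2.96 to 13.7. The region at 3631173 to 3631872 had the lowest value, with 1.51 in dnmt1 mt+ beside 1.71 in dnmt1 mt−. The innermost region, at 3629532 to 3629999, had 2.24 in dnmt1 mt+ and 2.20 in dnmt1 mt−. The region at 3639523 to 3639929 had 1.94 and 2.35, the one at 3643404 to 3643939 had 2.01 and 1.80, and the one at 3651774 to 3652057 had 1.71 and 2.07. The single WT peak of the run, at 3633155 to 3633798, had 2.22 in WT mt+, beside 1.59 and 1.97 in the dnmt1 libraries. The 3 regions without a dnmt1 mt+ peak had 2.42, 1.82 and 2.20 in dnmt1 mt−. Farther out, the last 2 regions of the chromosome had a peak in all 4 libraries.

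Runs of 5 or more consecutive regions that lacked a peak in at least 1 library numbered 9, and 8 lay in the interior. The interior makes up 96.9% of the length. Which libraries held the peaks of these 8 runs, and how even their steps were, is not given here. The longest of these, on chromosome 1 between 5858305 and 5876408, also had 12 regions, with a median step of 1194 bp. Its regions were similarly weak, with a median of the highest fold enrichment over libraries of 2.28, against 2.14 in the run of chromosome 5. In the other 7 runs this median ran from 2.25 to 6.34.

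**Figure D4:**
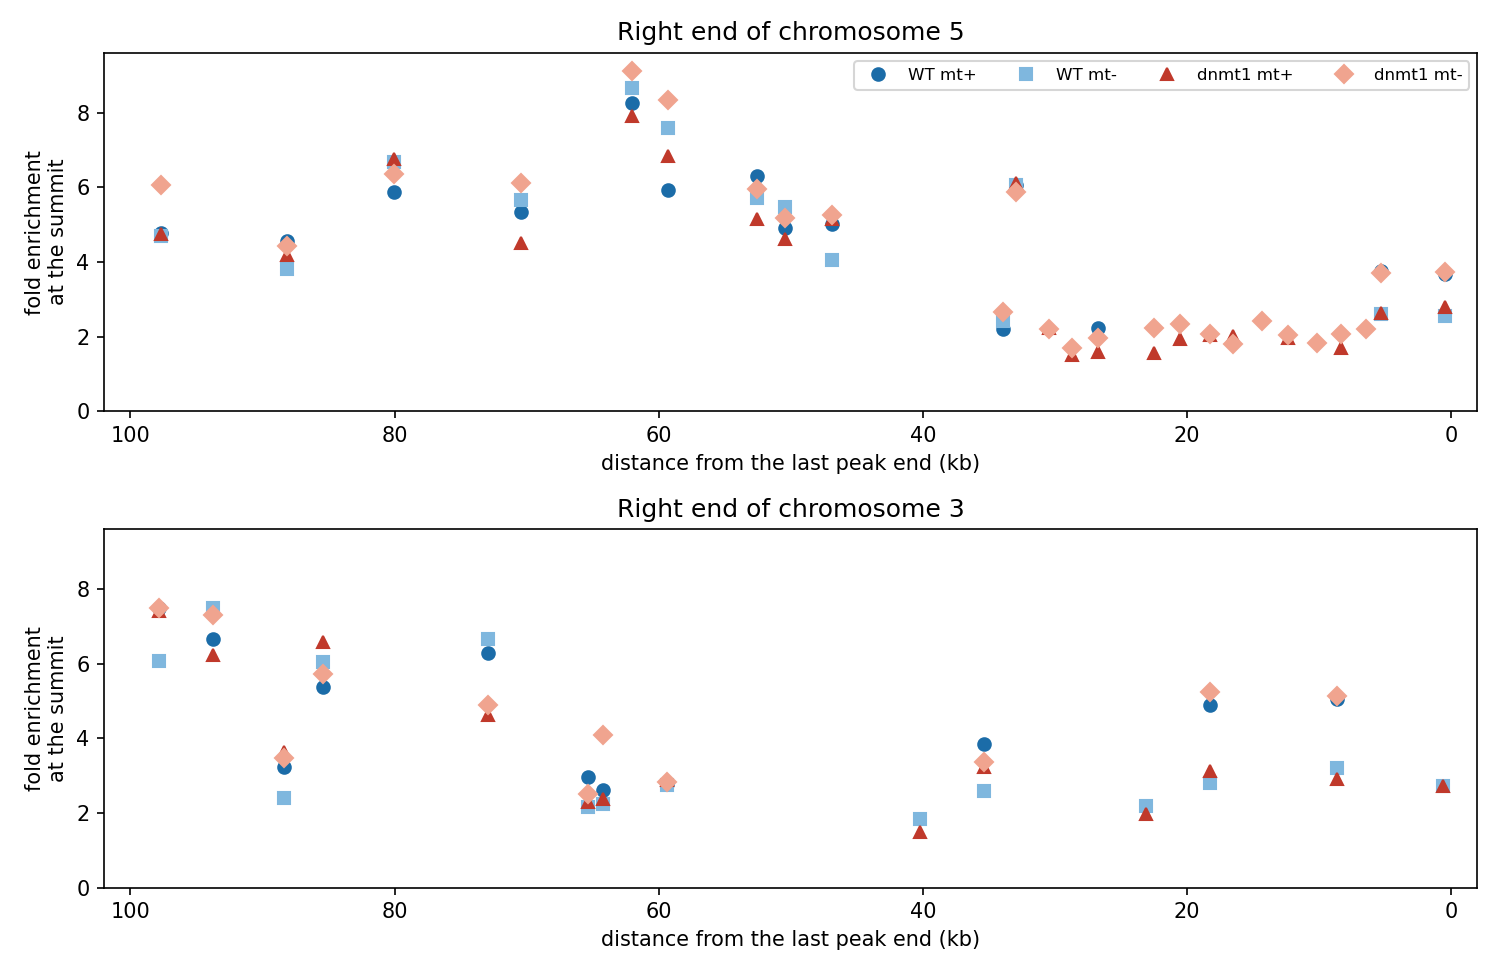
Fold enrichment at the summit (y axis) of every region within 100 kb of the right ends of chromosomes 5 and 3 against its distance from the last peak end (x axis, kb), with 1 symbol per library that had a peak. On chromosome 5 a run of 12 regions at 1.51 to 2.42 is marked almost only by dnmt1 symbols; on chromosome 3 the 3 regions at 40.2, 23.1 and 0.582 kb carry WT mt- and dnmt1 mt+ symbols alone.

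At the right end of chromosome 3 libraries matched in a way that crossed both factors of the design. Over the series this was the rarest of the 6 patterns held by a pair of libraries, with 19 regions, where both dnmt1 libraries alone had 166 and both mt− libraries alone had 126. Regions with a peak in WT mt− and dnmt1 mt+ alone numbered 4 among the members (0.915%, 0.25 to 2.33), where 0.122% of all regions had this pattern, and 3 of the 4 were at this end. Without it 1 of 423 remained (0.236%, 0.00599 to 1.31). The 3 regions were at 9236848 to 9237755 (1.85 in WT mt− and 1.49 in dnmt1 mt+), 9253898 to 9254972 (2.19 and 1.97) and 9276336 to 9277499 (2.72 and 2.73). The other member of this pattern was at chromosome 12, 65578 to 65917, with 3.0 and 2.80.

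Some shared neighbours of these regions had values that split in the same way. At 9258801 to 9259674 the fold enrichment was 4.90 in WT mt+ and 5.25 in dnmt1 mt−, and 2.79 in WT mt− and 3.12 in dnmt1 mt+. At 9268424 to 9269331 it was 5.06 and 5.12, against 3.20 and 2.92. The same split was seen in the outermost regions of chromosome 5, where 3659326 to 3660216 had 3.68 and 3.74 against 2.55 and 2.80, and 3654283 to 3655489 had 3.77 and 3.71 against 2.60 and 2.64. Between 9241651 and 9242550 on chromosome 3 the split was smaller, at 3.85 and 3.37 against 2.60 and 3.24, and from 9217622 to 9218583 there was none, at 2.77 and 2.83 against 2.74 and 2.89. A further shared region of chromosome 3, 9212682 to 9213908, split only in part, at 2.61 and 4.09 against 2.24 and 2.37. The split was not confined to these ends. Near the left end of chromosome 16, 12342 to 13487 had 4.92 and 3.91 against 2.30 and 2.22. How many members split in this way was not counted. Fold enrichments of different lists also depend on depth and input, so these values are set side by side only. Per the labels the input came from a set shared with H3K4me1 libraries, without saying which library used which input, and the part of this in the values was not tested. The labels were taken as given, and whether libraries were exchanged was not tested, while gained and lost at this end depend on the labels.

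Within pairs of regions at this end the spacing was also repeated. In the last 64.2 kb, 8 regions formed 3 pairs and 2 single regions. The midpoints of a pair were 4808, 4799 and 4802 bp apart. From the first pair to the middle one the left and right members stepped by 24006 and 23998 bp, and from the middle pair to the last by 17134 and 17137 bp. That left and right steps match follows from the similar distances within the pairs. The steps from pair to pair were not alike. In the middle and the last pair the region on the left was one of those with a peak in WT mt− and dnmt1 mt+ alone, and the region on the right had a peak in all 4 libraries.

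Peaks of this stretch had a high −log10 q for their fold enrichment. For each peak the −log10 q was divided by the median of the interior peaks of the same list and of a similar fold enrichment, a measure chosen after the values had been seen. At the right end of chromosome 3, 8 peaks of WT mt−, 7 of dnmt1 mt+, 2 of WT mt+ and 2 of dnmt1 mt− exceeded that median more than 2 times. The peak at 9253898 to 9254972, for example, had a −log10 q of 39.3 in WT mt− at a fold enrichment of 2.19, where the interior median was 9.19. The last region of chromosome 5 had a −log10 q of 59.2 in WT mt− at 2.55, where the interior median was 14.1.

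Over all ends 14 regions held such a peak in at least 1 list, of which 12 were at right ends and 8 at the right end of chromosome 3. In WT mt− 14 of 421 end peaks exceeded 2 times the interior median (3.33%, 1.83 to 5.52), against 0.777% of interior peaks (0.631 to 0.946). The shares in dnmt1 mt+ were 2.39% (1.15 to 4.35) and 0.827%, those in WT mt+ 1.21% (0.393 to 2.8) and 0.706%, and those in dnmt1 mt− 1.18% (0.383 to 2.72) and 0.796%. Without the right end of chromosome 3 the end shares were 1.47% (0.543 to 3.18) in WT mt−, 0.739% (0.153 to 2.14) in dnmt1 mt+, 0.744% (0.154 to 2.16) in WT mt+ and 0.725% (0.15 to 2.1) in dnmt1 mt−. Outside chromosomes 3 and 5, the last regions of chromosomes 8 and 14 and regions near the left ends of chromosomes 14 and 16 were among them.

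**Figure D5:**
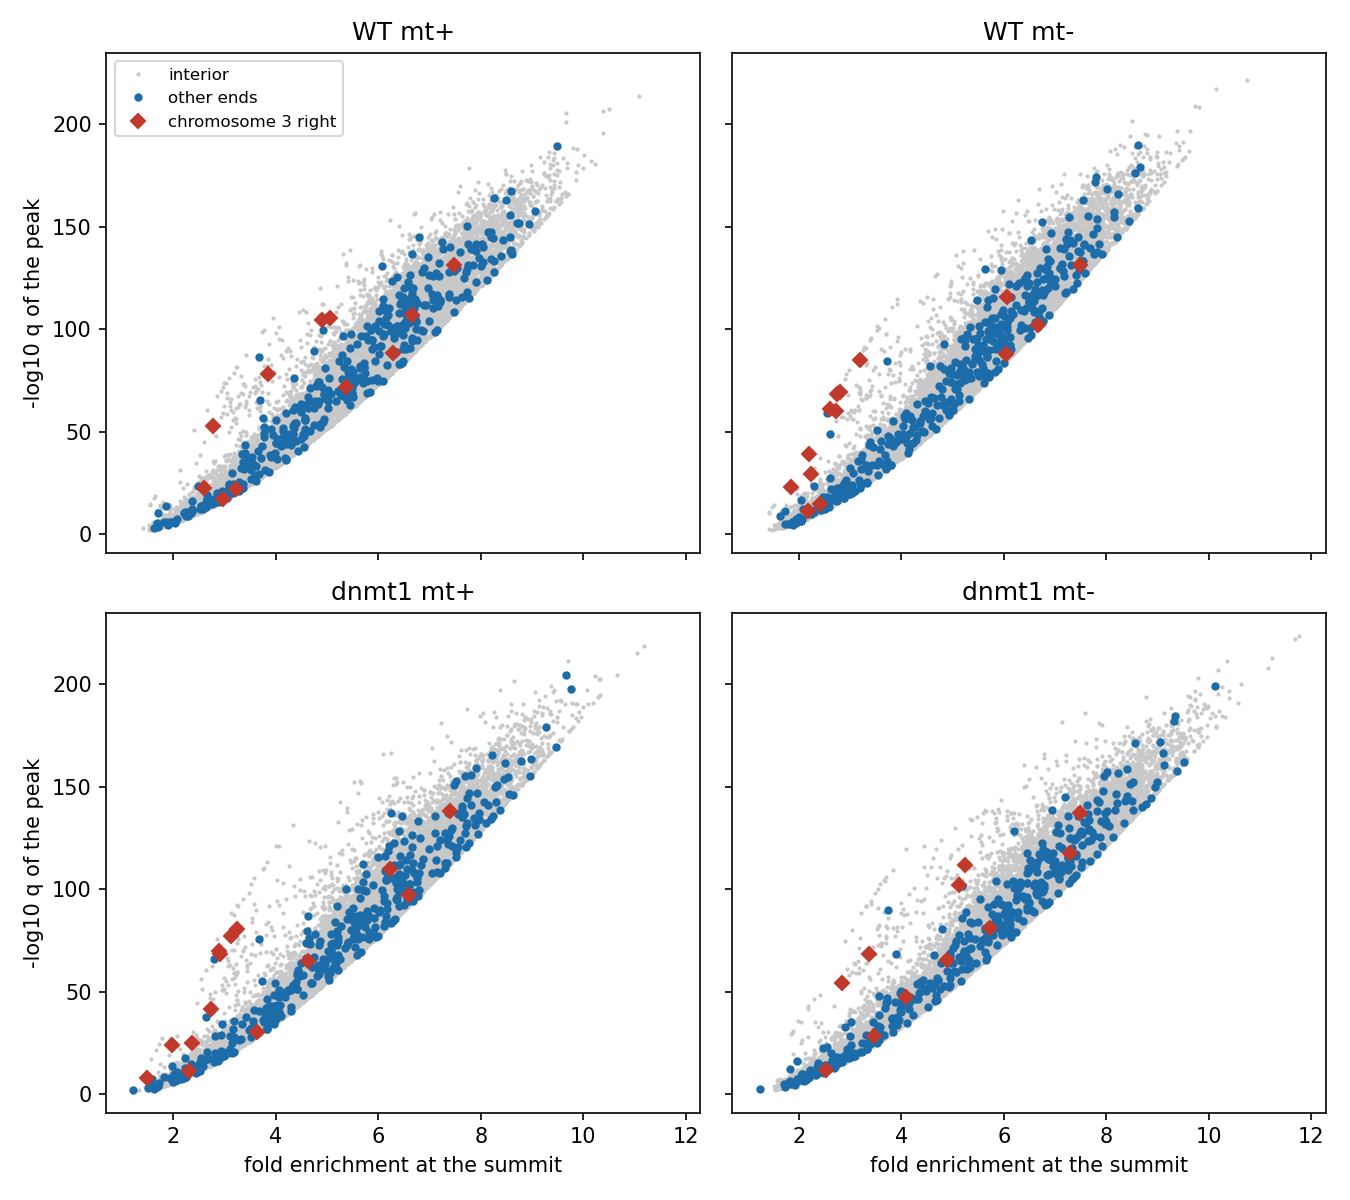
−log10 q (y axis) against fold enrichment at the summit (x axis) for every peak of the 15 chromosomes in each of the 4 libraries: interior peaks in grey, peaks near ends in blue and those at the right end of chromosome 3 as red diamonds. In WT mt- and dnmt1 mt+, 8 and 7 of the red peaks lie more than 2 times above the interior median for their fold enrichment, and in each of the other libraries 2 do.

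Members with a peak in 1 mating type of a genotype were about as frequent as over the series or more so in 3 of 4 counts. In the WT pair 4 of 407 members with an mt+ peak had none in mt− (0.983%, 0.268 to 2.5), where the series had 1.66%. In the other direction 10 of 413 had none in mt+ (2.42%, 1.17 to 4.41), where the series had 2.13%. In the dnmt1 pair the counts were 7 of 414 (1.69%, 0.682 to 3.45, series 0.798%) and 15 of 422 (3.55%, 2 to 5.79, series 3.29%). The excess of dnmt1 mt+ peaks without a mt− partner came with the right end of chromosome 3, and without it 4 of 400 (1%, 0.273 to 2.54) had none.

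Regions that followed mating type in both genotypes were rare. None of the 437 members had a peak in both mt+ libraries but in no mt− library, which allows a share of up to 0.686% for counting error, where the series had 0.193%. The opposite pattern had 2 members (0.458%, 0.0555 to 1.64), where the series had 0.812%. They were at chromosome 5, 78798 to 79039, with 2.01 in WT mt− and 2.34 in dnmt1 mt−, and at chromosome 14, 82542 to 82805, with 1.88 and 1.72. Both were narrow and ranked in the lowest 10% of their lists.

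The remaining patterns covered weak regions. The pairing of WT mt+ with dnmt1 mt− alone had 1 member (0.229%, 0.00579 to 1.27), where the series had 0.367%. It lay at chromosome 14, 33026 to 33370, with 1.71 and 1.85. Among the 8 members with a peak in 3 libraries, 5 lacked it in dnmt1 mt+ alone, 2 in dnmt1 mt− alone, 1 in WT mt− alone and 0 in WT mt+ alone. Of the 245 interior regions in 3 libraries, dnmt1 mt+ was also the library most often missing, in 125, followed by WT mt− with 58, WT mt+ with 37 and dnmt1 mt− with 25. The strongest of the 8 was at chromosome 12, 9844236 to 9844665, where WT mt+ had 2.36, WT mt− had 3.06 and dnmt1 mt+ had 2.25. Among the 14 with a peak in 1 library, 7 had it in dnmt1 mt−, which was also the longest list, while WT mt− had 4 of them, WT mt+ had 2 and dnmt1 mt+ had 1. The 284 interior regions in 1 library stood in the same order, with 112 held by dnmt1 mt−, 84 by WT mt−, 58 by WT mt+ and 30 by dnmt1 mt+.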

How the data were processed

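The authors deposited 1 H3K27ac peak list per library. Per the submitters' processing notes, MACS2 2.2.7.1, Bowtie2 2.4.2, deepTools 3.5.1, Trim Galore 0.6.7 and Picard were used; for their options and for the genome build, none is given in the sources used here. In the deposited layout each peak has a position, a whole-number score, a fold enrichment ratio at the summit, a −log10 p-value, a −log10 q-value and a summit offset. The lowest −log10 q of the lists ran from 2.01 to 2.17. These values depend on depth, which is unknown, and describe peaks within a list only.

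Peaks were merged by an overlap of 1 bp, and a region's value in a library is that of its peak with the highest −log10 q. Coordinates are those of the lists, given from 1. No gene was assigned, since the only gene table used here is of assembly v5.5, and whether the lists have that build is not given. A region was called gained or lost by the presence of a peak. Shares carry exact Clopper-Pearson and densities exact Poisson intervals of 95%; a count of 0 is given a limit of 3 counts. −log10 q at a given fold used bins of 0.1 in log2 fold enrichment with at least 20 interior peaks.

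Named regions are the members of the patterns held by a pair of libraries, the 5 strongest shared and 5 widest members, the ends with most and fewest members, and those next to the limit. The members of the 100 kb windows and these rules were chosen with earlier results of these data known. The runs, the spacing, the members in 3 libraries, the shared neighbours and the −log10 q ratio were chosen after their values were seen. The code for the grouping and pattern counts was tested on simulated data, slightly shifted copies of the WT mt+ list from which well separated peaks were dropped. The copies did not differ in peak width, splitting or calls near the threshold, so errors from these in the real lists were not tested. Alternatives were other joining rules, peak thresholds, list lengths, windows and ends. Analyses ran in Python 3.11.15 with scipy 1.17.1, pandas 2.3.3, numpy 2.4.6 and matplotlib 3.10.9.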

Additional observations from a re-analysis of the deposited data

Results flagged for a closer look

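At 2 of the 30 ends the number of gained minus lost regions in dnmt1 had opposite signs in the 2 strains; the difference was not tested. At the right end of chromosome 3 the mt+ strain had 3 and the mt− strain -3, from the same 3 regions with a peak in WT mt− and dnmt1 mt+ alone. At the left end of chromosome 14 the mt+ strain had -2 and the mt− strain 1, from regions with a fold enrichment of at most 2.05. Over all members the values were 7 (mt+ strain) and 9 (mt− strain), of which the right end of chromosome 5 alone had 7 and 12. Without that end they were 0 and -3.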

How the results depend on the processing

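No paired analysis was possible because each group has 1 library, so the groups share fewer than 2 replicate numbers, and no result comes from a test; gained and lost are counts within a strain. Of 192 alternative values for 16 results, 150 stayed inside the 95% interval of the main value. An overlap of 50% of the shorter peak, ends set by shared regions, and left ends alone moved none outside it. The alternatives without the right ends of chromosomes 5 and 3 were chosen after the data had been seen. Why values moved was not tested. The alternative shares are given for the members only. No share over all regions at the same setting stands beside them, so they do not compare the ends with the series. Summits within 200 bp, which part overlapping peaks, lowered the share in all 4 libraries to 79.4% and raised gained and lost members to 7.09% and 5.07% (mt+ strain) and 8.45% and 7.36% (mt− strain), and unpartnered ones to 4.59% and 6.18% (WT mt+, WT mt−) and 5.91% and 6.57% (dnmt1 mt+, dnmt1 mt−). A −log10 q of at least 10 gave 2.09% gained with 5.3% lost (mt+ strain) and 0.721% for both dnmt1 libraries alone, so gains no longer exceeded losses there. Lists of equal length gave 3.39% gained and 3.62% lost in the mt− strain. Regions with a peak above the median of at least 1 list were also taken alone, with partners sought in the full lists. A weak partner thus counts, so this filter favours shared regions by design. There were 76.7 such regions per Mb, 99.6% were in all 4 libraries, 0.435% were gained in each strain and in both, and 0% had any other pattern. A window of 50 kb gave 128 per Mb, 84.4% in all 4 libraries, 8.38% and 10.3% gained (mt+, mt−), 5.73% for both dnmt1 alone and 0% for both mt− alone, and one of 200 kb gave 2.95% gained in the mt− strain. Right ends only gave 0% for both WT alone, both mt− alone and WT mt+ with dnmt1 mt− alone, and lists of equal length also gave 0% for the last. Without the right end of chromosome 5, 2.29% and 2.27% were gained (mt+, mt−) and 0.971% were in both dnmt1 alone; without that of chromosome 3, 0.236% were in WT mt− with dnmt1 mt+ alone.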
